A study of Homo sapiens with 5 samples.

Results

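HOX genes encode homeodomain transcription factors that lie side by side in the clusters HOXA, HOXB, HOXC and HOXD. Members were taken as every probe set that the array's annotation assigns to a single gene whose symbol is HOXA, HOXB, HOXC or HOXD followed by a number, with antisense genes left out, and each gene was read from its brightest probe set (by mean intensity across the 5 arrays). This gave 28 genes from 44 probe sets, out of 19775 genes tested. They were HOXA2, all 10 HOXB genes, all 9 HOXC genes and 8 of the 9 HOXD genes. HOXD3 was represented only by probe sets that name several genes, and it and 10 HOXA genes of the 39 human HOX genes were not analysed here, so HOXA enters no comparison between clusters.

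Values came from 5 arrays of total RNA of MDA-MB-231, an established human line of breast cancer cells that look mesenchymal. In 2 arrays the cells had received SAHA (vorinostat, an inhibitor of histone deacetylases) at 2 uM in the culture medium, and in 3 arrays they had received the vehicle DMSO; per the labels both groups were collected after 30 h. The extraction text also speaks of a transfection, about which the other labels say nothing. Nothing says that the replicates were separate cultures, so the p-values measure only how far these arrays scatter, which may be technical scatter, and the number of arrays limits the precision. In an RNA extract, fewer cells that express a gene and less RNA per cell cannot be told apart.

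Along each cluster the genes are numbered by paralog group from the end used in anterior tissues to the end used in posterior ones, and neighbours in that order are expressed in neighbouring parts of the embryo. Trithorax-type proteins keep HOX genes active and polycomb complexes keep them silent, retinoic acid opens the anterior ends, and TALE homeodomain proteins of the PBX, MEIS and PKNOX families bind DNA together with HOX proteins. In breast tissue HOX genes take part in gland development, and several are expressed at altered levels in breast tumours.

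The arrays matched the line only in part. VIM, CD44, CAV1, MET and EGFR, markers of this line, were bright (group means of 10.33 to 13.97 on the log2 scale), and the luminal markers ESR1, PGR and FOXA1 lay below the median gene, but EPCAM (9.56 in SAHA, 10.28 in DMSO) and GATA3 (9.16 in SAHA, 9.41 in DMSO) lay above it. Pearson's r across genes was 0.979 to 0.980 between SAHA and DMSO arrays and 0.997 to 0.999 within a group (genes are not independent replicates). The 24 probe sets for polyadenylated control RNAs of Bacillus subtilis averaged 0.37 higher on the log2 scale on SAHA than on DMSO arrays. The 3' minus 5' difference of the ACTB control probe sets was 2.04 and 2.16 in SAHA. In DMSO it was 2.08, 2.22 and 3.29, highest in DMSO 1. Results scaled on these controls or without DMSO 1 are given for named genes whose call they end. Counts for the HOX genes and for the lists that moved most stand near the end.

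After SAHA 3 of the 28 HOX genes were lower and 0 were higher by limma (1, HOXD1, at an unadjusted p under 0.05). HOXC6 fell by more than a factor of 2, HOXD4 and HOXC4 fell by smaller amounts, and the other 25 did not pass the test (limma, Benjamini-Hochberg adjusted p under 0.05 over all genes). Over all genes 15.6% were called lower and 14% higher, so the share of HOX genes called lower (10.7%) was not above that of genes in general. The median log2 difference, SAHA minus DMSO, was -0.15 for the 28 HOX genes and -0.03 for all genes; without SAHA 1 the HOX median was -0.081, with 19 genes below 0. The difference was below 0 for 22 HOX genes (78.6%), above 0 for 4 and exactly 0 for 2, against 56.9% of all genes below 0. Both SAHA arrays lay below all DMSO arrays for 9 HOX genes (32.1%; 26% of all genes) and above all of them for 1 (22.1% of all genes).

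**Figure D1:**
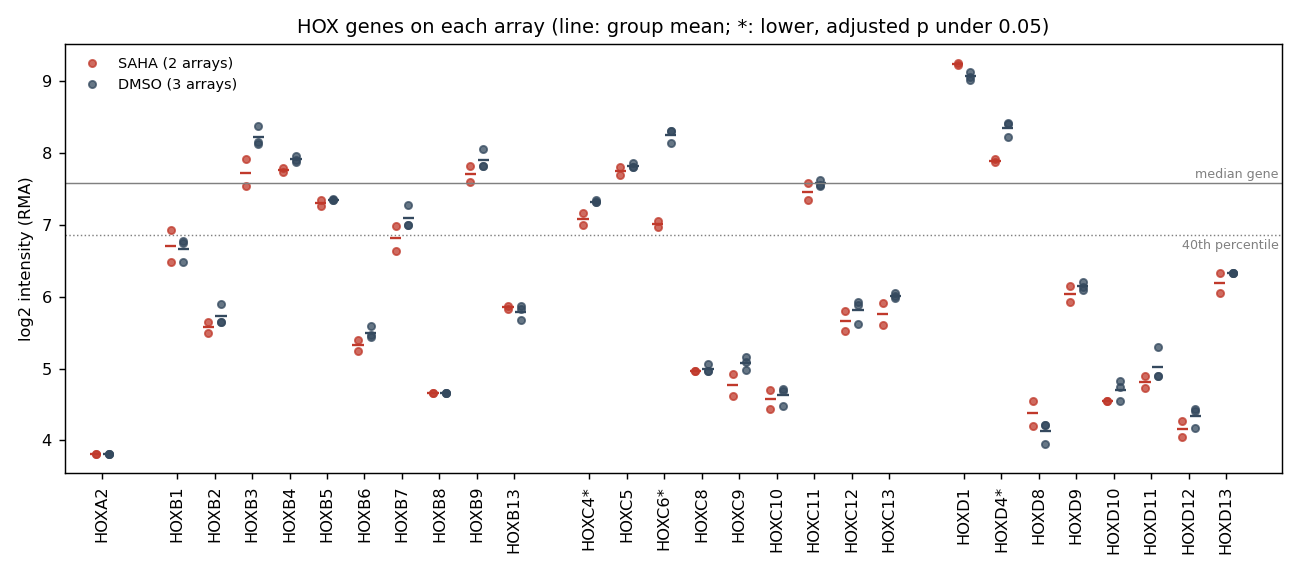
Log2 RMA intensity of each HOX gene (brightest probe set) on every array, with SAHA arrays in red at the left and DMSO arrays in dark grey at the right of each gene, short lines for group means, and grey lines for the median gene and the 40th percentile of all genes. HOXC6 (7.05 and 6.97 in SAHA, 8.13 to 8.31 in DMSO) shows the widest gap between the groups, and 17 of the 28 genes lie below the 40th percentile.

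Most HOX genes were dim. Of the 28, 17 had a mean below the 40th percentile of all genes (6.86 on the log2 scale) and 7 lay above the median gene (7.58). Without detection calls in the deposited table, how far a reading lay above background is not known. For scale, 11 genes of unrelated tissues, such as INS of the pancreas and GFAP of astrocytes, were read, and 8 of them were dim. Their group means were 3.44 to 7.86 in SAHA and 3.78 to 7.74 in DMSO. Of these 11, 1 (9.09%) was called lower, PTPRC (-0.34, limma adjusted p = 0.0176), and 0 were called higher. Some deposited values were exactly equal on several arrays: this held for 13 HOX genes (46.4%; 43.5% of all genes), and HOXA2 and HOXB8 had 1 value on all 5 arrays (3.81 and 4.65). Among the 7 brighter HOX genes 2 were called lower (28.6%), where 26.7% of all genes above the median level were. Among the other 21 there was 1 (4.76%), where 4.49% of genes below the median level were. No HOX gene of either class was called higher, where 21.6% of all genes above the median level and 6.3% of those below it were.

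HOXC6, a factor of the thoracic region known for high expression in prostate cancer, had the largest change among the measured HOX genes. Its log2 intensity was 7.05 and 6.97 on the SAHA arrays, against 8.31, 8.13 and 8.30 on the DMSO arrays. The groups did not overlap, and the 2 SAHA arrays lay close together. The means were 7.01 ± 0.06 in SAHA (SD, n = 2) and 8.25 ± 0.10 in DMSO (SD, n = 3), a log2 difference of -1.24 ± 0.07 (SE; limma adjusted p = 0.000972), which is 2.36-fold lower. With each array left out in turn the difference lay between -1.295 and -1.198 and passed every time (limma adjusted p = 0.00827 to 0.0212). HOXC6 has a single probe set, of the kind that can share sequence between transcripts, so it could not be read without such probe sets.

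HOXC4, which in B cells activates the gene of the antibody-diversifying enzyme AID, fell slightly. Its log2 intensity was 7.17 and 7.004 in SAHA, against 7.32, 7.31 and 7.34 in DMSO. The DMSO arrays were nearly equal, and both SAHA arrays lay below them. The log2 difference was -0.24 ± 0.06 (SE; limma adjusted p = 0.0454). The call ended without DMSO 1, DMSO 2 or DMSO 3 (limma adjusted p = 0.124, 0.128 and 0.143), and without probe sets of shared sequence (0.0521), a setting that leaves the HOXC4 difference as it is.

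HOXC5 stands between these genes in the cluster and was not called. It read 7.70 and 7.80 in SAHA, against 7.86, 7.80 and 7.80 in DMSO, with overlapping groups and a difference of -0.07 (95% interval -0.21 to 0.07). The test of the gap between neighbours uses the within-array difference of the genes. HOXC6 changed by -1.17 on the log2 scale relative to HOXC5 and by -0.998 relative to HOXC4, with SAHA below all DMSO arrays each time, whereas HOXC4 relative to HOXC5 gave -0.17 with overlap. Exact two-sided permutation p-values were 0.1, 0.1 and 0.2, and 0.133, 0.133 and 0.2 after adjustment over 4 such gene pairs. With 2 arrays against 3 the smallest possible p is 0.1, so no pair could pass.

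In RefSeq, HOXC4, HOXC5 and HOXC6 are listed with the same gene start. The 250 bases before it are shown because HOXC4 and HOXC6 fell and HOXC5 was not called; those of HOXD4, which fell, and of HOXD1, which was not called, are set beside them. All are on the plus strand of GRCh38.p14, from RefSeq, at chr12:54016638-54016887, chr2:176151300-176151549 and chr2:176188418-176188667. Capitals mark matches on either strand to TAAT, the homeodomain core, and CCAAT, the CCAAT box; where matches touch or overlap they run together. The first window is listed under HOXC4 and HOXC5 and precedes the gene start of HOXC6 as well.
Shared HOXC start: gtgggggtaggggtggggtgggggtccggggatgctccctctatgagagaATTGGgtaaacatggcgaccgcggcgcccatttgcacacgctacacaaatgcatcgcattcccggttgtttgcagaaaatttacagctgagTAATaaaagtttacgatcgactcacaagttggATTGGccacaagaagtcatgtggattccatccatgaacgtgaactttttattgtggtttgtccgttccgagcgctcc
HOXD4: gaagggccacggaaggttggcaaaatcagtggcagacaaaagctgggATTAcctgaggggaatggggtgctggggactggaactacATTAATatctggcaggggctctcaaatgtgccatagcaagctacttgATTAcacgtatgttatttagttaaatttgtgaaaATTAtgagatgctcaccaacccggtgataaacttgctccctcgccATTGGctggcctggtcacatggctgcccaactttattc
HOXD1: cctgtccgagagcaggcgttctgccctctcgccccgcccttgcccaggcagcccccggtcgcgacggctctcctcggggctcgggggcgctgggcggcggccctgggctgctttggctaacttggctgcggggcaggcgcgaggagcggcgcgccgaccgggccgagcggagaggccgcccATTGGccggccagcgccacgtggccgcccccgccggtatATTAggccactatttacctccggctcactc
The window before HOXD4 holds TAAT at 5 places, and those before the shared HOXC start and before HOXD1 hold it at 1 each; 47.4% of 35116 listed promoters of the same length hold it at least once. CCAAT occurs at 2 places before the shared HOXC start and at 1 place in each of the other windows (32% of promoters hold it). TATAAA (10.7% of promoters) and TGATTNAT, a site for PBX and HOX together (2.48%), were searched on both strands and are not in these windows. The windows differ in composition: CG occurs 14 times before the shared HOXC start, 4 times before HOXD4 and 31 times before HOXD1, where the median promoter has 11, and G or C makes up 50.8%, 47.6% and 74.8% of the bases, where the median promoter has 58%. Matches of letters describe the sequence only, and the probe sets do not show which start the cells used. Of the 28 measured genes, 11 had a promoter in the table.

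HOXD4, a hindbrain gene with a known retinoic acid response, fell too. Its log2 intensity was 7.92 and 7.87 in SAHA, against 8.41, 8.22 and 8.42 in DMSO. The 2 SAHA arrays agreed closely and lay below the whole DMSO group. The log2 difference was -0.45 ± 0.08 (SE; limma adjusted p = 0.0143), or 1.37-fold lower. The call ended without SAHA 1, SAHA 2, DMSO 1 or DMSO 3 (limma adjusted p = 0.0889, 0.093, 0.0585 and 0.0623), while the difference stayed between -0.52 and -0.42. Its other probe set gave -0.14 (limma adjusted p = 0.357 over probe sets). A further 3 probe sets name HOXD3 and HOXD4 together, and in 1 of them SAHA (4.39 and 4.34) lay below DMSO (4.94, 4.64 and 4.98).

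HOXD1, which in mice guides the fibres of pain-sensing neurons, was the only HOX gene whose SAHA readings both exceeded every DMSO reading. It read 9.22 and 9.25 in SAHA, against 9.06, 9.01 and 9.13 in DMSO. The difference of 0.16 ± 0.05 (SE) did not pass (limma adjusted p = 0.0751). Its other probe set went the opposite way: it read 3.46 and 3.35 in SAHA, against 3.88, 3.75 and 3.81 in DMSO, a difference of -0.41 (limma adjusted p = 0.0152 over probe sets). The brighter probe set is of the shared-sequence kind, and the other one lies among the dimmest readings of the array. Relative to HOXD4 on the same array, HOXD1 changed by 0.62 (exact two-sided permutation p = 0.1, adjusted 0.133), the smallest p this design allows. The direction of HOXD1 thus depends on the probe set read.

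HAGLR, a long non-coding RNA whose gene overlaps that of HOXD1 by 291 bases in RefSeq, rose. It read 10.24 and 10.06 in SAHA, against 9.74, 9.63 and 9.49 in DMSO, a log2 difference of 0.53 ± 0.10 (SE; limma adjusted p = 0.0181). The groups did not overlap. Its other probe sets gave 0.09 and 0.21 and were not called (limma adjusted p = 0.513 and 0.114 over probe sets), and the average of all gave 0.28 (called, 0.0142). The call ended with each array left out except DMSO 1 (limma adjusted p = 0.0551 to 0.12). It was the only one of 11 measured non-coding RNAs of the clusters (of 18 listed) to be called by its brightest probe set. Of the 11, 9 were dim, and over all genes 14% were called higher and 15.6% lower. A second probe set of HOXB-AS1 was lower (-0.18; limma adjusted p = 0.039 over probe sets), and 1 non-coding RNA was called lower with probe sets averaged or without SAHA 2. HOTAIR, transcribed from the HOXC cluster, and HOTTIP, from the end of HOXA, gave -0.10 and -0.17 (limma adjusted p = 0.282 each).

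HOXB held no called gene among its 10. HOXB3, which acts in the hindbrain and in blood stem cells, had the largest difference there. It read 7.91 and 7.54 in SAHA, against 8.16, 8.12 and 8.38 in DMSO, without overlap, and the difference of -0.49 ± 0.14 (SE) missed the threshold (limma adjusted p = 0.067). It passed under several other settings, among them quantile normalization run again (0.0289) and all probe sets averaged (-0.34, 0.00668). It did not pass without probe sets of shared sequence (limma adjusted p = 0.0786) or with any 1 array left out. Over all fits with 1 array left out the difference lay between -0.68 and -0.31. The other HOXB3 probe set gave -0.18 with overlap (limma adjusted p = 0.308 over probe sets). HOXB4, known for expanding blood stem cells, read 7.74 and 7.79 in SAHA, against 7.91, 7.87 and 7.96 in DMSO, again without overlap, with a difference of -0.15 (limma adjusted p = 0.0783; 95% interval -0.27 to -0.03 before adjustment). HOXB9, which acts in mouse mammary gland growth together with its paralogs, read 7.82 and 7.60 in SAHA, against 7.82, 7.82 and 8.05 in DMSO, with overlap and a difference of -0.19 (limma adjusted p = 0.292). Its other probe set gave -0.43 with SAHA below all DMSO arrays, and the average of both was called lower (-0.31, limma adjusted p = 0.0228). HOXB7, which drives FGF2 expression in breast cancer cells, gave -0.28 (limma adjusted p = 0.245), and its 3 probe sets gave -0.28, 0.12 and -0.39. HOXB13, a prostate factor, and HOXB1 of the hindbrain gave 0.06 and 0.04.

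**Figure D2:**
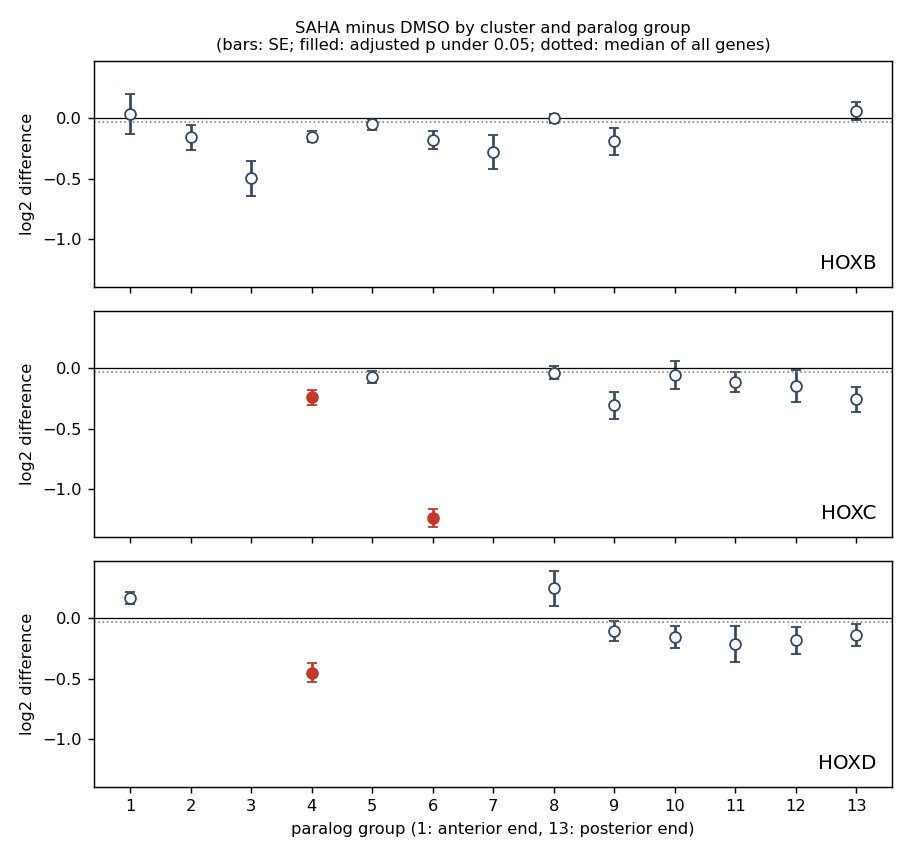
Log2 difference, SAHA minus DMSO, of each measured HOX gene by paralog group, 1 panel per cluster; bars are SE, filled points passed limma at adjusted p under 0.05, and the dotted line is the median of all genes (-0.03). The filled points are HOXC4, HOXC6 and HOXD4, in paralog groups 4 and 6, and no HOXB gene is filled.

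By cluster, the median log2 difference was -0.15 for each of HOXB, HOXC and HOXD. Counts of called genes were 0 of 10 in HOXB, 2 of 9 in HOXC and 1 of 8 in HOXD, all lower, where 15.6% of all genes were. The difference was below 0 for all 9 HOXC genes, 7 HOXB genes and 6 HOXD genes, against 56.9% of all genes. HOXC10, with -0.06, was above 0 without SAHA 1 (0.0765). The clusters therefore had the same median, and their ranges differed mainly at the low end, which HOXC6 set in HOXC; the difference between clusters was not tested, since genes are not replicates. By position, paralog groups 1 to 3 had 0 of 5 called (median 0.00), groups 4 to 8 had 3 of 11 (median -0.15) and groups 9 to 13 had 0 of 12 (median -0.15). Dim genes were 3, 4 and 10 of these, so the posterior end held mostly dim readings. In groups 4 to 8, 27.3% were called lower, and 4 of the 11 lay above the median level. Among all genes 26.7% of those above that level and 4.49% of those below it were called lower.

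Of the 12 posterior genes, 11 had a difference below 0, yet all lay within -0.31 to 0.06. HOXC9 gave -0.31 and HOXC13, which controls hair keratins, -0.26, both with SAHA below all DMSO arrays (limma adjusted p = 0.119 and 0.148). Without SAHA 2 HOXC13 gave -0.41 and HOXD13 -0.28, in a fit where the lone SAHA array is assumed to vary like the DMSO arrays. HOXD9 to HOXD13, known for limb and digit formation, gave -0.21 to -0.10, with overlapping groups in every case; HOXD13 read 6.05 and 6.33 in SAHA, against 6.33 on each DMSO array, an exact tie with SAHA 2. HOXD8 had the highest difference of all, 0.25, from 4.21 and 4.55 in SAHA against 4.22, 4.22 and 3.94 in DMSO, and did not pass (limma adjusted p = 0.292). In all, 20 genes were neither called nor above the median level, with differences of -0.31 to 0.25, and 11 of them had equal values on several arrays.

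**Figure D3:**
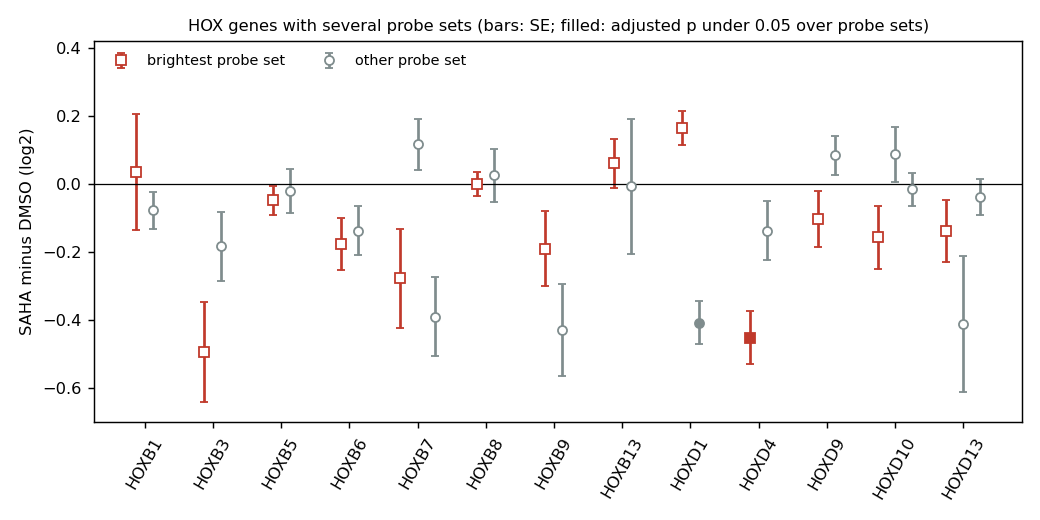
Log2 difference, SAHA minus DMSO, for each probe set of the 13 HOX genes with several; red squares are the brightest probe set, grey circles the others, bars are SE, and filled symbols passed limma at adjusted p under 0.05 over all single-gene probe sets. For HOXD1 the probe sets point in opposite directions (0.16 and -0.41).

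A gene's probe sets did not always point the same way. Of the 13 HOX genes with several, all probe sets were below 0 for 6 (HOXB3, HOXB5, HOXB6, HOXB9, HOXD4 and HOXD13), and 7 had mixed directions or a value of 0. Fitted over 41091 single-gene probe sets, of which 22.1% were called, 3 of the 44 HOX probe sets passed. These were the HOXC6 probe set, the brighter one of HOXD4 and the dimmer one of HOXD1, all lower; HOXC4 did not pass there (limma adjusted p = 0.0584).

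Partners and regulators of HOX genes changed in both directions. These lists hold many bright genes, and among all genes above the median level 26.7% were called lower and 21.6% higher. Of 8 measured TALE cofactors, 3 fell and 0 rose, all 3 from above that level: PKNOX1 (-0.81), MEIS2 (-0.79) and PBX3 (-0.55). MEIS2 read 8.16 and 7.79 in SAHA, against 8.83, 8.74 and 8.72 in DMSO, and PBX3 read 9.43 and 9.44 in SAHA, against 9.89, 9.94 and 10.11 in DMSO. Neither gene's groups overlapped. With SAHA 1 or SAHA 2 left out the calls ended for PBX3 and PKNOX1, without DMSO 3 for PKNOX1, and without any 1 DMSO array for MEIS2 (limma adjusted p = 0.0505 to 0.0744). The median of the list was -0.14, beside -0.15 for the HOX genes. Without dim genes the 2 medians were -0.39 and -0.19, and without probe sets of shared sequence -0.08 and -0.15. Under some alternatives 1 TALE cofactor was called higher, among them quantile normalization run again (4 lower) and without DMSO 1 (2 lower).

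Among 13 trithorax-type regulators, which keep HOX genes active, 3 rose and 5 fell, with a median of -0.12; all 13, like all 13 polycomb subunits, lay above the median level, where 26.7% of genes were called lower and 21.6% higher. The methyltransferase KMT2C rose (0.81), while WDR5 (-0.63) and PSIP1 (-0.53), which work with the KMT2 enzymes, and the demethylase KDM6B (-0.56) fell. KDM6B gave -0.14 with its probe sets averaged (limma adjusted p = 0.0561), and WDR5 gave -0.44 without probe sets of shared sequence (0.0786). Among 13 polycomb subunits, 2 rose and 5 fell, with a median of 0.16. PHF19 fell most (-2.24), followed by the methyltransferases EZH2 (-0.61) and EZH1 (-0.53), and RING1 rose (0.59). EZH2 no longer passed without any 1 DMSO array, nor EZH1 without SAHA 1, SAHA 2 or DMSO 3 (limma adjusted p = 0.061 to 0.102).

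Of 14 retinoic acid pathway genes, 1 rose and 1 fell, with a median of -0.02. Of these, 5 lay above the median level, and over all genes 14% were called higher and 15.6% lower. The carrier CRABP2 rose (0.32; limma adjusted p = 0.0578 without DMSO 2), and ALDH1A3, which makes retinoic acid, fell (-0.46; not without SAHA 1 or any 1 DMSO array, limma adjusted p = 0.0645 to 0.108). Of 9 genes named in other work as HOX targets, 4 of them above the median level, 2 rose and 1 fell, with a median of 0.05. The same shares of all genes stand beside these counts. SPP1, the matrix protein osteopontin, rose (0.91) from dim readings, CDKN1A rose (0.32) and the protease PLAU fell (-0.87); the CDKN1A call ended with each array left out (limma adjusted p = 0.0602 to 0.129).

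**Figure D4:**
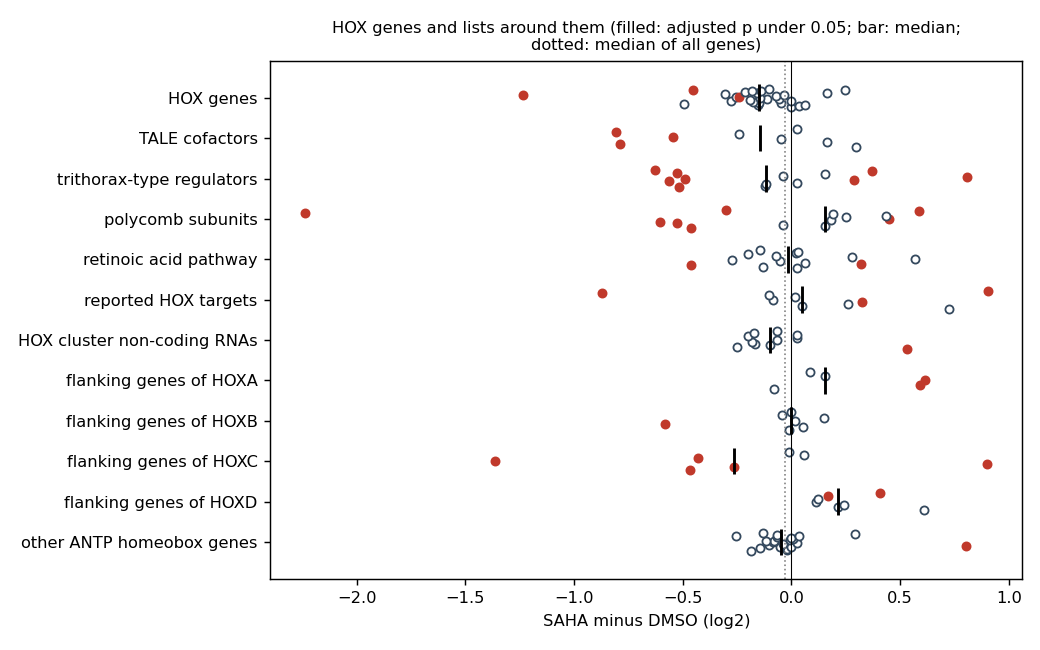
Log2 difference, SAHA minus DMSO, of the HOX genes (top line) and of lists around them, 1 point per gene; filled points passed limma at adjusted p under 0.05, black bars are list medians, and the dotted line is the median of all genes (-0.03). HOX points lie between -1.24 and 0.25, and PHF19 among the polycomb subunits (-2.24) lies farthest out.

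Genes that flank the clusters changed in both directions, and all but 5 of the 26 measured were brighter than the 40th percentile, unlike most HOX genes. Counts among them stand beside 26.7% called lower and 21.6% called higher for all genes above the median level. Beside HOXC, 4 of 7 fell and 1 rose: CBX5, which encodes heterochromatin protein HP1 alpha, fell (-1.36), ATF7 (-0.47), HNRNPA1 (-0.43) and ATP5MC2 (-0.26) fell, and CALCOCO1 rose (0.90). CBX5 read 7.66 and 7.75 in SAHA, against 9.15, 9.03 and 9.03 in DMSO, beside which HOXC6 changed by -1.24. With its probe sets averaged CBX5 gave -0.90. Leaving out SAHA 1 or SAHA 2 ended the call of HNRNPA1 (limma adjusted p = 0.0873 and 0.0721), as did the removal of probe sets of shared sequence (0.201). Beside HOXA, SKAP2 (0.61) and HIBADH (0.59) rose of 5, and beside HOXB, NFE2L1 (-0.58) fell of 7 (limma adjusted p = 0.0542 without SAHA 1). Beside HOXD, NFE2L2 (0.41) and MTX2 (0.17) rose of 7, but NFE2L2 not without SAHA 1 or any 1 DMSO array and MTX2 not without SAHA 2 or any 1 DMSO array (limma adjusted p = 0.0551 to 0.1), and all 7 differences were above 0. HOXD4 thus fell between flanking genes of which 0 were called lower. Of 22 other homeobox genes of the same class outside the clusters, DLX4 rose (0.80, but not without SAHA 1, SAHA 2 or DMSO 3) and 0 fell, with a median of -0.05. Of these 22, 0 lay above the median level. Below that level 6.3% of all genes were called higher and 4.49% lower.

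These directions depend on how the arrays are scaled. With each array centred on the polyadenylated controls, the median of all genes moved to -0.40 and that of the HOX genes to -0.52, with all 28 HOX genes below 0 and 26 called lower, among 1380 genes called higher and 14740 lower. This centring lowers every gene's difference by the same amount, so it leaves the order of the HOX genes as it was; HOXC6 then stands at -1.61. Under the same centring HAGLR, SKAP2, HIBADH, RING1 and NFE2L2 were no longer called (0.03 to 0.24), and CRABP2, CDKN1A and MTX2 were below 0. The list counts moved as well. Of 13 trithorax-type regulators 9 were called lower and 1 higher, and of 22 other homeobox genes 20 and 1. For 6 of 13 polycomb subunits, 6 of 8 TALE cofactors and 11 of 14 retinoic acid genes the call was lower, with 0 higher. In the fit without DMSO 1, HOXC6 was the only HOX gene called lower, and 0 were called higher. Called higher and lower in that fit were 1 and 5 trithorax-type regulators, 2 and 2 polycomb subunits, and 1 and 2 TALE cofactors.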

How the data were processed

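Labelled RNA of 2 SAHA and 3 DMSO samples was hybridised to single-colour arrays. Per the submitters' processing notes the authors ran RMA in R 2.12 (background correction, quantile normalization and a summary per probe set); the deposited values are intensity values on a linear scale for 54675 probe sets, of which 62 were controls, 41091 name 1 gene, 1801 several and 11721 none in the annotation used. Symbols of 41037 were updated through gene identifiers. The design had assumed log2 values, so log2 was taken first; nothing was normalized again.

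The comparison, SAHA minus DMSO, used limma 3.58.1 under R 4.3.3 (linear model with moderated variances and without covariates, two-sided, 3 residual and 1.62 prior degrees of freedom), with Benjamini-Hochberg adjustment over 19775 genes, and separately over single-gene probe sets. The procedure was checked on simulated data with independent normal scatter. Those data lack the equal values seen on these arrays, so the check does not cover them. Tables were handled with the R package data.table, version 1.17.8, and figures drawn with matplotlib 3.10.9. Probe sets of polyadenylated controls with a mean intensity over 100 were used.

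Members, gene lists, tests and alternatives were chosen with earlier results of these data known. Full values were given for called HOX genes and those above the median gene (HOXC5, HOXB3, HOXB4, HOXB9 and HOXD1), others by range; per list, up to 4 called genes with the largest difference, or the 2 largest where 0 passed. Outside that rule, ATP5MC2, the fifth of its list, and HOXB1, HOXB7, HOXB13, HOXC9, HOXC10, HOXC13, the HOXD genes, HOTAIR, HOTTIP and HOXB-AS1 were named after their values were seen. Alternatives covered scaling, dim genes, probe set choice, variance model, array weights, a replicate block, the threshold and each array left out; leaving out genes equal on all arrays of a group (2546) was added after the data were seen.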

Additional observations from a re-analysis of the deposited data

How the results depend on the processing

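HOXC6 was lower and called under all alternatives that give it a value. With all arrays it was -1.24, and across the alternatives -1.61 to -1.198. HOX genes called lower numbered 3 as reported, 26 with centring on the poly-A controls, 5 with probe sets averaged, and 1 with the replicate block or a threshold of 0.01; with each array left out they numbered 1 to 4, and 0 were called higher in any of these fits. All genes called higher and lower were 1380 and 14740 with poly-A centring, 1262 and 1316 with the replicate block, 1544 and 1773 at 0.01, and 1769 to 2234 and 1985 to 2797 with each array left out. The samples share only replicate numbers (deviations of same-numbered arrays correlated at 0.15 and -0.07), and under the replicate block the calls of HOXC4 and HOXD4 ended (limma adjusted p = 0.177 and 0.0747), a fit with fewer residual degrees of freedom. Some differences changed sign, called ones (CDKN1A, CRABP2 and MTX2) among them. With poly-A centring HOXB1 was -0.34, HOXB13 -0.31, HOXD1 -0.21, HOXD8 -0.13, CDKN1A -0.0503, CRABP2 -0.0551 and MTX2 -0.20. With probe sets averaged HOXB1 was -0.0211 and HOXD1 -0.12, and HOXD1 was -0.41 (called) without probe sets of shared sequence. With each array left out HOXB1 ran from -0.19 to 0.26, HOXC10 from -0.19 to 0.0765 and HOXD9 from -0.21 to 0.0090. Several listed genes kept their sign and call but had smaller differences with probe sets averaged. Among them were PKNOX1 (-0.33), PSIP1 (-0.27), ATF7 (-0.24), SPP1 (0.42) and DLX4 (0.42). NFE2L2 gave 0.17 there and was not called (limma adjusted p = 0.0544), while PHF19 (-2.34) and NFE2L1 (-0.61) moved slightly farther from 0. Except for shifts built into a setting, the cause was not tested. Signal over background is unknown, which limits what the 17 dim HOX genes can show.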
